A study of Rattus norvegicus with 232 samples.

Results

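The genes described here are 10 members of the insulin and insulin-like growth factor (IGF) system in the rat brain, chosen by name: Insr, Igf1r, Igf2r, Irs1, Irs2, Igf1, Igf2, Igfbp2, Igfbp5 and Ide. All 10 were found among the 20859 genes of the deposited RefSeq gene table. The table covered whole brain of untreated male rats of the Hybrid Rat Diversity Panel, with 197 animals of 74 inbred strains. A strain had 3 animals in 54 cases, 2 animals in 15 and 1 animal in 5. RNA was sequenced from libraries of total RNA depleted of ribosomal RNA. The strains comprised 30 HXB/BXH recombinant inbred strains (88 animals), derived from SHR/OlaIpcv and BN-Lx/Cub, 19 FXLE/LEXF recombinant inbred strains (43 animals), derived from F344/Stm and LE/Stm, and 25 classic inbred strains (66 animals), among which the progenitors are counted. GK/FarMcwi (3 animals), the Goto-Kakizaki rat, was bred for high blood glucose and is a non-obese model of type 2 diabetes. The labels give no age, and the methods describe young adult males whose brains were cut sagittally. A strain stands for 1 inbred genotype, so that its animals replicate that genotype and strains differ at very many loci at once. By the methods, HXB/BXH strains and their progenitors were kept in Prague, with brain tissue shipped in liquid nitrogen. Other classic inbred strains of the paper came from vendors, and their brains were put in RNAlater. Between these groups, strain cannot be told apart from source and storage of tissue.

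Insulin and IGF-1 signal through the receptor tyrosine kinases Insr and Igf1r, which phosphorylate the adaptors Irs1 and Irs2 and through them activate phosphoinositide 3-kinase and Akt. Igf2r, the cation-independent mannose 6-phosphate receptor, carries IGF-2 to the lysosome, the binding proteins Igfbp2 and Igfbp5 hold IGFs outside the cell, and Ide degrades insulin and amyloid beta. In adult brain Igf2 is known to be made mainly in meninges and choroid plexus, whereas the receptors are made widely by neurons and glia.

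The values are on a log2 scale and no counts were given, so the depth of the libraries is unknown. Library medians ran from 8.18 to 8.42, and the libraries fell into 17 batches by the label that names one. All of the fixed markers of neurons, astrocytes, oligodendrocytes, microglia and vessels were present, whereas the pituitary markers Gh1 and Prl were absent from the table. The library of LE/Stm animal 2, the only LE/Stm animal here, had a level of 23.2 for the liver gene Alb, and 12 animals exceeded 13 for Alb, with 17.2 the next highest. The 3 animals of LEW/Crl, labelled male, had 9.57 to 9.64 for the Y-linked gene Kdm5d against a median of 10.62 over all animals. HXB17/Ipcv animal 2 was lower still (9.32). The LE/Stm and LEW/Crl libraries are called doubted, and results that move without them, or also without HXB17/Ipcv 2, are given beside the values. Animals of SHR/OlaIpcv with the numbers 1 and 4 had 12 and 6 libraries, which were averaged, as were the 2 of BN-Lx/Cub 3.

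Promoter sequence is shown for the genes on which the results turn, that is Insr, which had the highest share of variation between strains, and the co-varying pair Igf2 and Igfbp2. The 150 bases before each RefSeq start are given (build GRCr8, 5′ to 3′ on the strand of the gene). RefSeq promoters were matched for 9 of the 10 genes, with 2 entries for Igf2. Capitals mark a GC box (GGGCGG) or a forkhead core (GTAAACA), searched on both strands. These motifs and TATAAA were chosen after the sequences had been seen, and a match is a match of letters only.
Insr, chr12:6128804-6128953, minus strand: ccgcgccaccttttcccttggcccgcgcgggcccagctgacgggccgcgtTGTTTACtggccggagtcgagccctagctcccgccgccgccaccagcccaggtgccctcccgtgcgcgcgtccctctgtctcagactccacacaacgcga
Igf2, chr1:207250476-207250625, minus strand: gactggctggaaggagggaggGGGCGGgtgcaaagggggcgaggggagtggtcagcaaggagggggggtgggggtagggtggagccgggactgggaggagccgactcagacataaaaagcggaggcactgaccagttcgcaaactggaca
Igf2, chr1:207253981-207254130, minus strand: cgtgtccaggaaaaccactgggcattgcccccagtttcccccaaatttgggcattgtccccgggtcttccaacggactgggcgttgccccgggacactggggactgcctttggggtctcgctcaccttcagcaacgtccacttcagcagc
Igfbp2, chr9:81864661-81864810, plus strand: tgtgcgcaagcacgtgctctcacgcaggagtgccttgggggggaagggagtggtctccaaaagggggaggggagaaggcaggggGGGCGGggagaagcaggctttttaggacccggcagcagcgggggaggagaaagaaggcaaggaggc
In the 250 bases before the start, a GC box was found in 6 of the 10 entries, against 30.5% of 33469 rat promoters in the same window. The forkhead core was found in 1 entry, that of Insr, against 3.21% of promoters, and TATAAA in 0 entries, against 12.9%. The starts of Igfbp2 and Igfbp5 lie 49376 bp apart on opposite strands of chromosome 9 and face each other.

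To compare levels between genes, log2 of the exonic length in kb of the longest reference transcript was subtracted. This was done for genes with such a length in the deposited annotation. On this per-kb log2 scale Igf2 had the highest level of the 10 genes (9.94), above 91.4% of genes with a length, followed by Igfbp2 (9.51, above 87.6%). Ide stood at 8.83 and Igf2r at 8.32. The tyrosine kinase receptors were close to each other, with 7.77 for Insr and 7.74 for Igf1r, and Igfbp5 (7.61) and Irs2 (7.32) followed. Igf1 (6.13) and Irs1 (5.94) had the lowest levels and lay above 35.7% and 33.6% of genes with a length. The secreted Igf2 and Igfbp2 thus had higher levels per length than the receptors. In bulk samples such as these, fewer cells of a type and less RNA per cell cannot be told apart.

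The first comparison asked how much of each gene's variation lay between strains, measured by the broad-sense R2 (between-strain over total sum of squares) and tested with limma's moderated F-test, where p-values were adjusted over all genes by Benjamini-Hochberg and a false discovery rate (FDR) of 5% was applied. With no strain effect R2 would be 0.372 by construction. Of the 10 genes, 8 had a strain effect, against 37.3% of all genes, and their median R2 was 0.50 against 0.45 over all genes. Insr had an R2 of 0.80, higher than 98.5% of genes. Igf2 had 0.69 and Igfbp2 0.65, and they were followed by the adaptor Irs2 with 0.58. Igf1r (0.50), Ide (0.50), Igfbp5 (0.49) and Igf2r (0.48) were called with adjusted p from 0.021 to 0.047. Igf1 (0.47, adjusted p 0.054) and Irs1 (0.34, adjusted p 0.73) were not called. Igf1 passed in 5 of 16 settings, namely with either batch label as a covariate (adjusted p 0.021 and 0.035), with the replicate block (adjusted p 0.033), and in the v6 (adjusted p 0.017) and v5 (adjusted p 3.0e-07) tables, earlier deposited versions on Ensembl genes. The call of Igf2r was lost without the doubted libraries (adjusted p 0.064, and 0.085 when HXB17/Ipcv 2 was left out too) and with the replicate block (adjusted p 0.056). Igf1r, Igf2r and Igfbp5 lost theirs whichever of the numbers 1, 2 and 3 was left out (adjusted p from 0.056 to 0.42), and Ide without 1 or 2 (adjusted p 0.24 and 0.67). Ide and Igfbp5 were not called in the table of reconstructed genes (adjusted p 0.16 and 0.22), nor Ide in v6 (adjusted p 0.12).

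**Figure D1:**
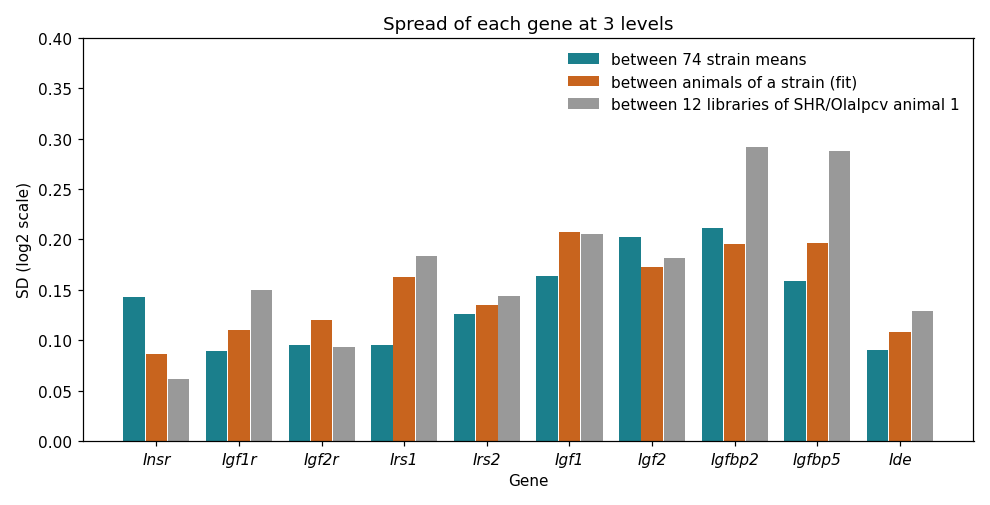
Standard deviation (log2 scale) of each of the 10 genes between the means of the 74 strains, between animals of a strain as the fit estimates it, and between the 12 libraries of SHR/OlaIpcv animal 1. In Insr the spread between animals (0.086) and between repeat libraries (0.062) was below that between strains (0.142), whereas in 7 of the 10 genes, Igfbp2 and Igfbp5 (0.29 each) foremost, the repeat libraries varied more than the strain means. Over the 6 libraries of SHR/OlaIpcv animal 4, which are not drawn, this held for 3 genes, Irs1, Igfbp2 and Igfbp5. The repeat libraries are single libraries of different batches, whereas a strain mean averages up to 3 animals, so these SDs are not on equal terms.

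Within a strain Insr varied least, with an SD of 0.086, and Igf1 most, with 0.207. The strain means of Igfbp2 spanned 1.10 from the highest to the lowest strain, those of Igf1 0.82, Igf2 0.80, Igfbp5 0.78 and Insr 0.59. Those of Irs2 (0.56), Irs1 (0.48), Igf2r (0.46), Ide (0.45) and Igf1r (0.41) spanned less. Neighbouring strains in the order of means mostly overlapped. Of the 73 neighbouring pairs in the order of strain means, the animals did not overlap in 2 pairs for Insr and Igfbp5, in 1 pair for Igf2r, Irs1, Igf1 and Igf2, and in 0 pairs for Igf1r, Irs2, Igfbp2 and Ide. This count was not made over all genes.

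Strain effects were then read inside each family of strains in the same fit. Inside the HXB/BXH strains 6 of the 10 genes were called, against 26.5% of all genes: Insr, Igf1r (adjusted p 0.0071), Igf2r (adjusted p 0.046), Irs2, Igf2 and Igfbp2. Inside the FXLE/LEXF strains 2 were called, against 7.47%, namely Insr and Igf2 (adjusted p 0.019). Inside the classic inbred strains 4 were called, against 23.2%, namely Insr, Igf1 (adjusted p 0.024), Igf2 and Igfbp2. Insr and Igf2 were thus called in all 3 families in this fit, and Irs1, Igfbp5 and Ide in none, although Igfbp5 was called inside the classic inbred strains in the v5 and v6 tables and inside HXB/BXH in v6, and Ide inside the classic inbred strains in v5 and without the number 3. Inside FXLE/LEXF the call of Igf2 was lost when any 1 replicate number was left out (adjusted p from 0.081 to 0.41), that of Insr was not, and neither was called in the v6 table. The call of Igf2r inside HXB/BXH was lost without the doubted libraries and HXB17/Ipcv 2 (adjusted p 0.076), without any 1 replicate number (adjusted p 0.20 to 0.21) and in the table of reconstructed genes (adjusted p 0.069). That of Igf1r inside HXB/BXH was lost without any 1 replicate number (adjusted p 0.069 to 0.26) and in v5 (adjusted p 0.29), and those of Igf2 and Igfbp2 inside HXB/BXH without the number 2 (adjusted p 0.054 and 0.05002). Inside the classic inbred strains Igf1 lost its call without the number 1 or 2 (adjusted p 0.40 and 0.35), with libraries centred on their median (adjusted p 0.071) and among reconstructed genes (adjusted p 0.20). That a gene was called in one family and not in another was not tested as a difference.

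Insr (rn6 chr12:1676738-1829313, minus strand) encodes the insulin receptor. Its level ran from 10.57 to 11.36 over the 197 animals, with a median of 11.02. The R2 was 0.739 inside HXB/BXH, 0.860 inside FXLE/LEXF and 0.861 inside the classic inbred strains. The value by construction differs between families with their numbers of strains and animals, so these R2 are not compared. Inside FXLE/LEXF only 8 of 19 strains had 3 animals. The highest strain means were those of LEW/Crl (11.27), BXH8/Cub (11.21) and LEXF2B/Stm (11.21, 1 animal). The 3 LEW/Crl animals, which are doubted libraries, lay between 11.21 and 11.31. The lowest means were those of SHR/OlaIpcv (10.68), HXB2/Ipcv (10.72) and HXB4/Ipcv (10.75). The 12 repeat libraries of SHR/OlaIpcv animal 1 lay between 10.59 and 10.82, so that the low level recurred in libraries of many batches. The strain effect of Insr passed the test in the main fit and in each of the 15 alternatives run for it, with adjusted p of at most 2.99e-07.

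**Figure D2:**
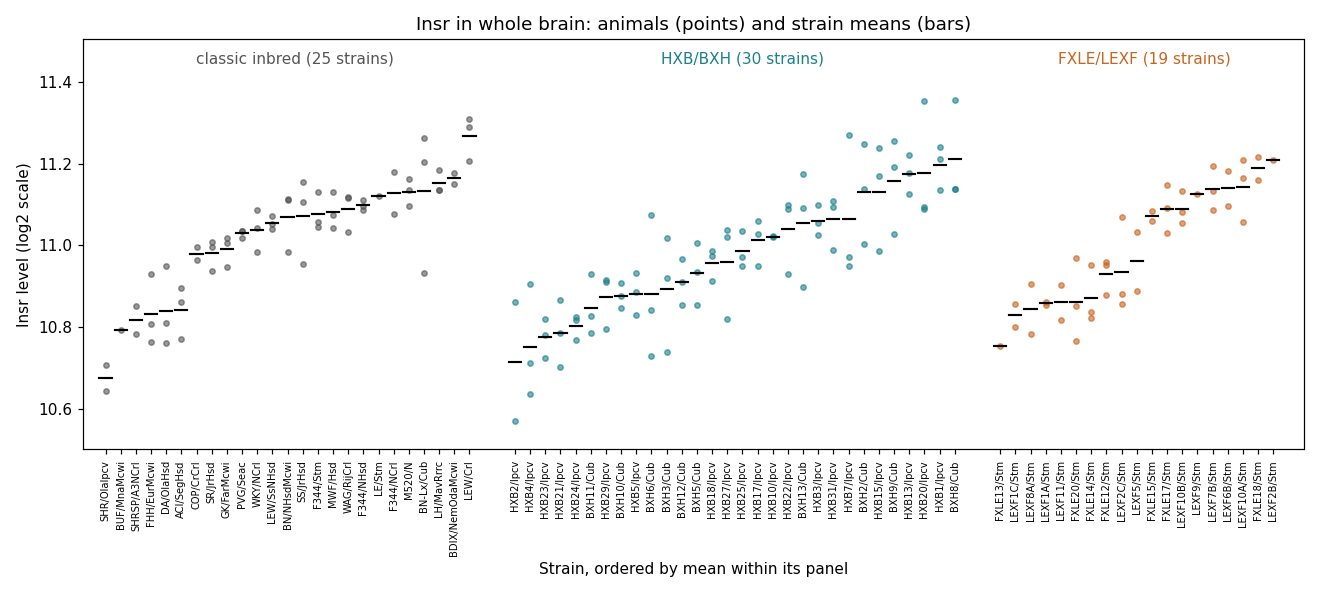
Insr level (log2 scale) in every animal (points) and the mean of each strain (bars), ordered by mean within the classic inbred, HXB/BXH and FXLE/LEXF strains. SHR/OlaIpcv has the lowest mean (10.68) and LEW/Crl the highest (11.27), and the recombinant inbred strains fill most of the range in between.

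In the FXLE/LEXF family the progenitors had nearly the same Insr level, 11.08 in F344/Stm (3 animals) and 11.12 in the single LE/Stm animal, a doubted library. The 19 recombinant strains nevertheless ran from 10.75 to 11.21. Of these, 11 had a mean below both progenitor means and 6 a mean above both, and in 10 every animal lay below both progenitor means, FXLE13/Stm (1 animal) and LEXF1C/Stm lowest. Insr was not alone in this. All 19 strain means of Igf1 lay below both progenitor means, and 13 strains had every animal below them, as did 8 strains for Igfbp2 and 7 for Igf2. Against the lowest single progenitor animal, strains with every animal below it numbered 9 for Insr, 5 for Igf1, 1 for Igf2 and 0 for Igfbp2. This was read after the values had been seen and rests on few progenitor animals. The same counts were not made over all genes. No batch held both progenitor and recombinant strains of this family. Single libraries of SHR/OlaIpcv animal 1 link these batches. Its Insr level was 10.74 in batch 13, that of the progenitors. In batches 15, 16 and 18, which held recombinant strains, it was 10.67, 10.70 and 10.68. Beyond these single libraries strain and batch cannot be told apart here, and the part of batch was not tested. F344/Stm animals 2 and 3 also had high Alb levels (14.6 and 14.3), and the part of this in Igf1 was not tested.

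Igf1r (rn6 chr1:128923893-129216656, plus strand), the receptor of IGF-1, ran from 10.86 to 11.61 over animals. COP/CrCrl (11.48), LEXF5/Stm (11.45) and BXH12/Cub (11.43) had the highest means, and HXB2/Ipcv (11.07) and HXB10/Ipcv (11.09) the lowest. Igf2r ran from 11.24 to 12.04. Its highest mean was that of LE/Stm (11.97, the doubted library), followed by HXB17/Ipcv (11.90), and the lowest were those of HXB25/Ipcv (11.50) and BN-Lx/Cub (11.54). The strain means of these receptors spanned less than those of the ligands and binding proteins.

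Of the adaptors, Irs2 (rn6 chr16:83824430-83848684, plus strand) ran from 10.43 to 11.40 and had a strain effect (adjusted p 0.00015). Its highest means were in BXH12/Cub (11.28), LEXF5/Stm (11.26) and BXH13/Cub (11.23), and its lowest in HXB10/Ipcv (10.73), HXB23/Ipcv (10.74) and HXB7/Ipcv (10.75). Irs1 (rn6 chr9:88030208-88086488, minus strand) ran from 8.91 to 9.73, with an R2 below the value by construction. A strain effect was not detectable in Irs1 with these animals, in any of the 16 settings run. The difference between the strain effects of Irs1 and Irs2 was not tested.

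Among the ligands, Igf2 (rn6 chr1:215775829-215854022, minus strand) ran from 11.54 to 12.81, with a median of 12.10. SS/JrHsd (12.52), LEW/Crl (12.49) and WKY/NCrl (12.45) had the highest means, and HXB25/Ipcv (11.72), LEXF10A/Stm (11.74) and LEXF10B/Stm (11.74) the lowest. Igf1 (rn6 chr7:28397869-28491816, plus strand), made in the brain by neurons and glia, ran from 8.27 to 9.59. The single LE/Stm animal, the doubted library with the Alb level of 23.2, was highest (9.45), followed by MWF/Hsd (9.22), and SR/JrHsd was lowest (8.63). Igf1 went with the liver marker list, with r of 0.26 within strains (permutation p 0.012, adjusted p 0.032, rho 0.19; 0.26 without the doubted libraries) and 0.43 over strain means (adjusted p 0.00087, rho 0.31; 0.33 without the 2 strains farthest from the median), and the part of that list in the order of strains was not tested.

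Of the binding proteins, Igfbp2 (rn6 chr9:80117169-80159519, plus strand) had the widest range, 10.04 to 11.59. HXB2/Ipcv (11.44), SS/JrHsd (11.26) and WKY/NCrl (11.26) were highest and BN-Lx/Cub (10.33), HXB20/Ipcv (10.54) and M520/N (10.56) lowest. SS/JrHsd and WKY/NCrl were thus among the 3 highest strains for both Igf2 and Igfbp2. Igfbp5 (rn6 chr9:80118233-80167033, minus strand) ran from 8.76 to 9.98, with COP/CrCrl (9.74) highest and LEXF10A/Stm (8.96) lowest. The annotated spans of Igfbp2 and Igfbp5 overlap on opposite strands. The library kit keeps strand, but the strand setting of the counting of this table was not given in the sources used here, so that part of their reads may be shared. Ide (rn6 chr1:255645682-256013495, minus strand) ran from 10.67 to 11.40, with LEXF5/Stm (10.80) lowest, a strain among the 3 highest for Igf1r and Irs2.

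Transcripts were tested in the same way in the deposited RefSeq transcript table. Transcripts were assigned to genes by RefSeq accession, which matched 32722 of 45991. Transcripts of these genes may therefore be missing. For Igf1r the matched transcripts had means of 8.40 and 5.72, against 11.26 for the gene. Of 19 matched transcripts of the 10 genes, 5 had a strain effect, against 13.9% of all transcripts. For Igf2, NM_001190162.1 had a mean of 12.01 and an R2 of 0.69, and the 3 others had means of at most 6.17 and were not called. Igfbp2 had 1 transcript (R2 0.65), as did Irs2 (R2 0.56). One transcript of Ide, XM_039102127.1 (R2 0.52), and one of Igf1, XM_006241193.4 (R2 0.52), were called. The gene-level effect of Insr was not found in any of its 3 matched transcripts. The most abundant, XM_039089097.1, had a mean of 10.17, an R2 of 0.49 and an adjusted p of 0.071, and its lowest strain was again SHR/OlaIpcv. The within-strain SD of that transcript was 0.347 against 0.086 for the gene.

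The next comparison asked whether the genes differed in GK/FarMcwi, by a limma contrast of GK/FarMcwi with the mean of the 73 other strain means. None of the 10 genes passed, 0 higher and 0 lower, with adjusted p from 0.39 to 0.98, and 0 had an unadjusted p under 0.05 (the lowest was 0.063). Over all genes 1.29% were called higher and 1.61% lower. The 3 GK animals had Insr levels of 10.95, 11.01 and 11.02, in the middle of the range, and the mean difference was -0.01 (SE 0.05). Igf2r lay highest relative to the other strains, with 11.75, 11.82 and 11.92, a difference of +0.13 (SE 0.07) and the 9th highest mean of 74. In the exact permutation test over strains its two-sided p was 0.19, where the smallest p that 74 strains allow is 0.0135.

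The ligands and binding proteins of GK/FarMcwi lay within the bulk of strains. Igf2 had 12.12, 12.27 and 12.28 (difference +0.11, SE 0.10) and Igfbp2 had 10.88, 10.92 and 11.14 (difference +0.09, SE 0.11). Igf1 had 8.94, 8.83 and 8.66, a difference of -0.15 (SE 0.12), and Igfbp5 a difference of -0.13 (SE 0.11). The remaining differences were -0.09 for Irs2, +0.03 for Igf1r, -0.03 for Irs1 and +0.01 for Ide. GK animals overlapped other strains in all of these genes. The meningeal markers, 10 of 10 measured, had a mean level of 9.49 in GK/FarMcwi and ran from 9.00 to 10.06 over animals. Other lists lay off the median animal. Oligodendrocytes (15.25 against 15.49) and mural cells (9.47 against 9.58) were lower in GK/FarMcwi. Erythroid cells (12.73 against 12.23) and choroid plexus (9.05 against 8.89) were higher. The part of these lists in the GK/FarMcwi values was not tested. Against the 23 animals of 12 other strains in the same batches, where 4.82% of all genes were called, again 0 of the 10 passed. The smallest adjusted p of the limma contrast there was 0.14 for Igf2 (+0.16, SE 0.06, unadjusted p 0.014). Igf2r followed with +0.15 (SE 0.06, unadjusted p 0.032, adjusted p 0.23).

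**Figure D3:**
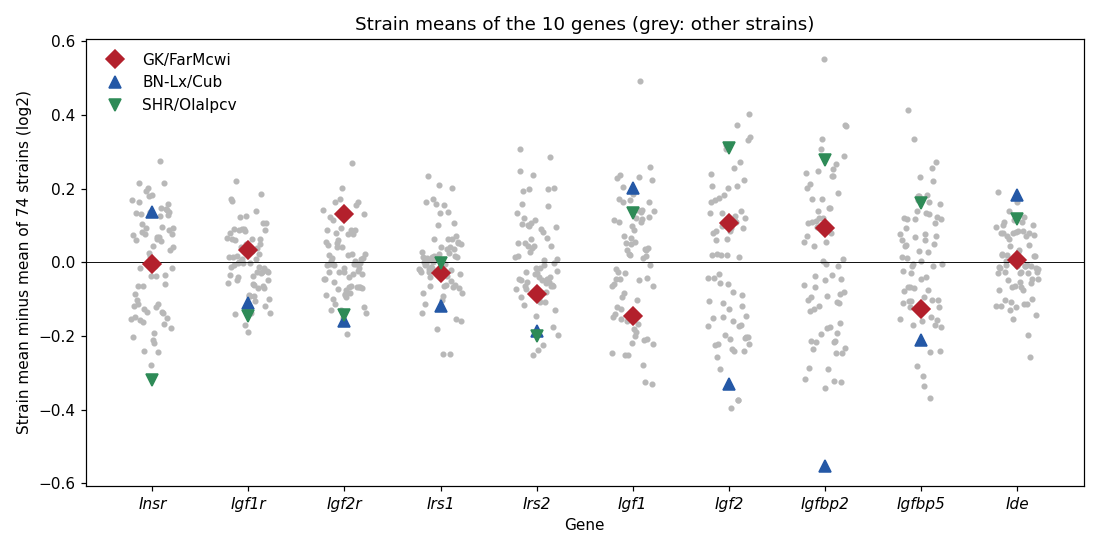
Mean of each strain minus the mean of the 74 strains (log2) for the 10 genes, with GK/FarMcwi, BN-Lx/Cub and SHR/OlaIpcv marked and the other strains in grey. GK/FarMcwi lies inside the cloud for every gene, and BN-Lx/Cub and SHR/OlaIpcv lie on opposite sides for Insr, Igf2, Igfbp2 and Igfbp5, of which Igfbp5 did not pass the test.

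BN-Lx/Cub and SHR/OlaIpcv were compared because a difference between them can segregate in the HXB/BXH strains. Insr was higher in BN-Lx/Cub by 0.46 (SE 0.08, adjusted p 1.9e-05), whereas 2.63% of all genes were called higher. The BN-Lx/Cub animals had 10.93, 11.26 and 11.20 and the SHR/OlaIpcv animals 10.71 and 10.64, without overlap. The share of all genes without overlap between these few animals was not counted. This difference was called in each of 18 settings, from 0.36 to 0.56. Igfbp2 was lower in BN-Lx/Cub by 0.83 on the log2 scale (SE 0.18, adjusted p 0.00072) and Igf2 lower by 0.64 (SE 0.16, adjusted p 0.0053), with 1.87% of all genes called lower.

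Igfbp2 stood at 10.28, 10.38 and 10.35 in BN-Lx/Cub against 10.97 and 11.35 in SHR/OlaIpcv. For Igf2 the values were 11.54, 11.72 and 12.09 against 12.21 and 12.64, so that the animals, with libraries averaged, did not overlap in either gene. Single libraries did overlap. For Igf2 they went down to 11.90 in SHR/OlaIpcv animal 1 and up to 12.17 in BN-Lx/Cub animal 3. For Igfbp2 these values were 10.39 and 10.56. These differences were less stable than that of Insr: Igf2 was called in 10 of 17 settings (-0.86 to -0.24) and Igfbp2 in 11 of 18 (-1.02 to -0.29). Without SHR/OlaIpcv animal 4, which leaves 1 SHR/OlaIpcv animal that is assumed to vary like the animals of other strains, neither was called (Igf2 -0.42, adjusted p 0.43; Igfbp2 -0.64, adjusted p 0.21), and without BN-Lx/Cub animal 1 Igf2 was not (-0.52, adjusted p 0.11). With the replicate number as a block only Insr was called (Igf2 adjusted p 0.15, Igfbp2 adjusted p 0.056). Of the marker lists, several were lower in BN-Lx/Cub than in SHR/OlaIpcv, at 9.35 against 9.67 for meningeal fibroblasts, 8.85 against 9.09 for choroid plexus, 12.04 against 13.32 for erythroid cells, 7.66 against 8.38 for liver and 6.69 against 7.55 for the olfactory bulb. Others were higher in BN-Lx/Cub, at 13.84 against 13.74 for neurons, 15.68 against 15.50 for oligodendrocytes, 9.75 against 9.61 for microglia, 4.38 against 4.02 for the pituitary and 10.75 against 10.72 for the cerebellum. Within strains the neuron list had r of 0.40 with Insr, and the erythroid list r of 0.37 with Igfbp2 and 0.18 with Igf2. The part of these lists in the differences of Insr, Igf2 and Igfbp2 was not tested. Igfbp5 (-0.37, adjusted p 0.23) and the other 6 genes did not pass.

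The 30 HXB/BXH strains were then placed relative to the middle of the progenitor means, as a description. For Insr, 19 strain means lay on the BN-Lx/Cub side of 10.90 and 11 on the SHR/OlaIpcv side, and 5 lay outside the progenitors. In 27 strains every animal exceeded both SHR/OlaIpcv animals, and in 8 every animal lay below all BN-Lx/Cub animals. SHR/OlaIpcv had the lowest Insr mean of all strains, so that most strains lie above it by that rank. These counts were not made over all genes. For Igf2, 12 lay on the BN-Lx/Cub side and 18 on the other, with 2 outside. For Igfbp2 the split was 7 and 23, with 3 outside. For the genes in which the progenitors were close, most strains lay outside their range, 29 of 30 for Igf2r and Irs2, 28 for Ide and 27 for Igf1r.

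Igf2 and Igfbp2 co-varied over animals. After the strain mean had been removed, Pearson's r was 0.61 over 192 animals of 69 strains (Spearman's rho 0.59, permutation p 1e-05 for both, the smallest that 100000 permutations can give). Over the means of 74 strains r was 0.74 (rho 0.74, permutation p 1e-05 for both, again the smallest). Without the 2 samples farthest from the median of Igf2, r was 0.59 and 0.73. All 45 pairs of the 10 genes were computed, and the adjusted p of this pair over them was 2.6e-05 within strains and 9e-05 over strain means. Inside HXB/BXH, FXLE/LEXF and classic inbred strains r within strains was 0.55, 0.74 and 0.66, and over strain means 0.68, 0.54 and 0.87, with a permutation p of at most 0.018. In each of the 15 batches with at least 6 libraries r was positive, from 0.16 to 0.94 with a median of 0.71. With batch removed r was 0.63 within strains and 0.63 over the means of 56 strains.

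**Figure D4:**
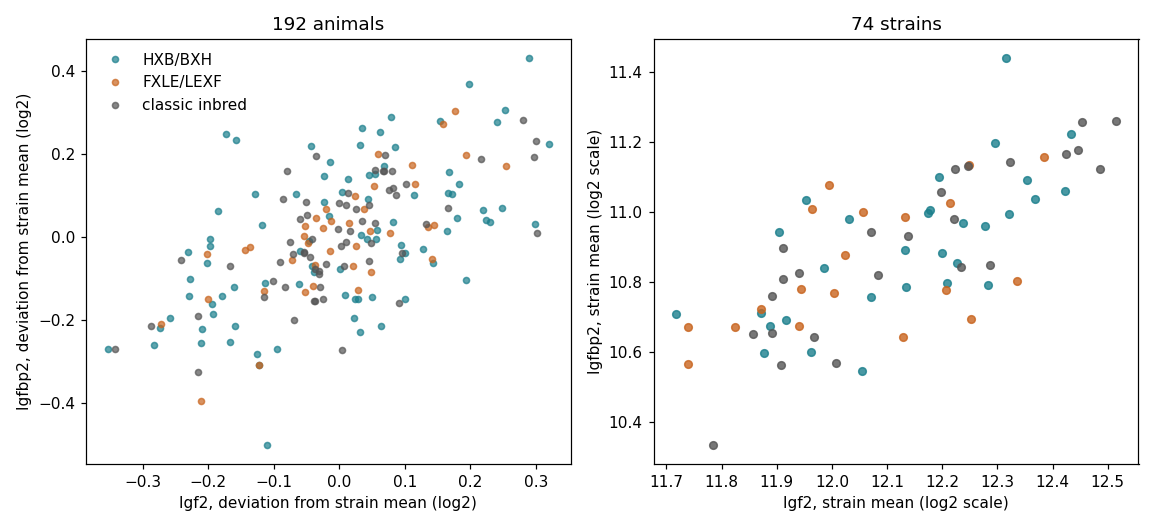
Igfbp2 against Igf2, left as the deviation of 192 animals from their strain mean and right as the means of 74 strains (log2 scale), coloured by family of strains. Both panels show a rise in all 3 families, with r of 0.61 on the left and 0.74 on the right.

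Markers of the brain's coverings moved with both genes. The meningeal fibroblast list (10 of 10 genes measured, median levels from 7.82 to 11.05) had r within strains of 0.76 with Igf2, 0.63 with Igfbp2 and 0.53 with Igfbp5 (permutation p 1e-05 for each, the smallest possible), and r of 0.79, 0.74 and 0.58 over strain means. The corresponding rho were 0.73, 0.63 and 0.54 within strains and 0.78, 0.78 and 0.60 over strain means. The choroid plexus list (10 of 10, median levels from 7.35 to 14.05) had 0.47 with Igf2, 0.36 with Igfbp2 and 0.06 with Igfbp5 within strains, and 0.51, 0.55 and 0.43 over strain means. With the meningeal list as a covariate, r between Igf2 and Igfbp2 was 0.25 within strains (permutation p 0.012) and 0.37 over strain means (permutation p 0.0013). With the choroid plexus list as a covariate it was 0.53 and 0.63. Mural cell markers (r 0.59) and astrocyte markers (0.59) also moved with Igf2 within strains.

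Over the whole table, the genes most like Igf2 within strains, among 10428 genes above the median level, were Slc13a4 (r 0.75), a sulfate transporter, Vim (0.72), the intermediate filament vimentin, Col3a1 (0.68), a fibrillar collagen that is also in the meningeal list, Bmp6 (0.67) and Slc2a12 (0.64). For Igfbp2 they were Col8a2 (0.79), a non-fibrillar collagen, Mxra8 (0.75), Ltbr (0.74), Ctsz (0.74) and Gpx4 (0.74). Igfbp2 ranked 7th for Igf2, whereas Igf2 ranked 489th for Igfbp2. The likeness between this pair was therefore close from the side of Igf2 and exceeded by many genes from that of Igfbp2.

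Repeat libraries of the same animal gave the spread between libraries of 1 animal. Over the 12 libraries of SHR/OlaIpcv animal 1 the SD was 0.29 for Igfbp2 and Igfbp5, 0.21 for Igf1, 0.18 for Igf2 and Irs1, and 0.062 for Insr. Over the 6 libraries of animal 4 it was 0.30 for Igfbp2, 0.24 for Igfbp5, 0.15 for Igf2, 0.13 for Igf1, 0.11 for Irs1 and 0.095 for Insr. For Igfbp2 and Igfbp5 the SD in animal 1 and in animal 4 was above that between animals of a strain (0.195 and 0.196). For Insr (0.086) this held in animal 4 only, and for Igf1r, Irs1, Irs2, Igf2 and Ide in animal 1 only. The SD of animal 1 against animal 4 was 0.14 against 0.055 for Irs2, 0.15 against 0.069 for Igf1r and 0.13 against 0.064 for Ide. The spread between libraries of 1 animal was thus itself known only roughly. In the 12 libraries of animal 1, which share 1 animal, Igf2 and Igfbp2 had r = 0.58 (permutation p 0.049, adjusted p 0.060 over 11 relations; rho 0.46, permutation p 0.13; r 0.46 without the 2 libraries farthest from the median). Igf2 and Igfbp5 had r = 0.81 (permutation p 0.0013, adjusted p 0.0071; rho 0.77, permutation p 0.0050; r 0.67 without 2). The meningeal list went with Igfbp2 (r 0.88, adjusted p 0.0024; rho 0.75, permutation p 0.0073; 0.71 without 2). The meningeal list also went with Igf2 (r 0.76, adjusted p 0.011; rho 0.74, permutation p 0.0078; 0.72 without 2). Of the 11 relations 8 passed the adjustment, and Igf2 with Igfbp2, the choroid plexus list with Igfbp2 and Irs2 with Ide did not. The r of Igf1 with Ide (0.76, adjusted p 0.023) rested on 2 libraries, being 0.14 without them. Whether those libraries share 1 RNA extract was not given in the sources used here.

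Of the 45 pairs, 31 passed within strains after adjustment, 20 of them positive and 11 negative. Over strain means 17 passed, 13 positive and 4 negative, and 16 passed in both. The share of all gene pairs that would pass was not counted, so these counts are not read as particular to the members. Each pair that passed kept its sign in Spearman's rho and without the 2 samples farthest from the median, and r and rho differed by at most 0.07 within strains and 0.11 over strain means. The receptors and adaptors moved together, but within strains each had a closer gene outside the members. These were Kmt2a for Igf1r (r 0.86), Dync1h1 for Igf2r (0.86), Rnf44 for Irs2 (0.84), Brd3 for Irs1 (0.81) and Ncoa2 for Insr (0.65). Igf1r went with Igf2r (r 0.68 within strains, 0.62 over strain means) and with Irs2 (0.67 and 0.70), and Irs1 with Igfbp5 (0.59 and 0.60). Insr followed Igf1r (0.59) and Igf2r (0.60) within strains, but over strain means the values were 0.12 and 0.15 and did not pass. The difference between the levels of analysis was not tested.

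Ide went against both adaptors and against Igf1r and Igf2r, whereas with Insr it had r -0.07 within strains and 0.12 over strain means, neither passing. With the slope of each animal's deviations on gene length as a covariate, added after the data were seen, the r of Ide with Insr was -0.27 within strains (adjusted p 0.0059) and passed, and 0.06 over strain means. Its r within strains was -0.48 with Irs2, -0.45 with Irs1, -0.43 with Igf1r and -0.40 with Igf2r, and 0.59 with Igf1. Over strain means the values were -0.34, -0.43, -0.33, -0.32 and 0.39. Markers of cell types moved with these genes too. The oligodendrocyte list (4 of 4 genes, animal means from 14.97 to 15.91) had r of 0.52 with Ide, -0.52 with Igf1r and -0.37 with Igf2r within strains. The neuron list (4 of 4, animal means from 13.59 to 14.03) had 0.53 with Igf1r, 0.49 with Irs2, 0.48 with Irs1, 0.42 with Igf2r and 0.40 with Insr. Of 130 relations of a gene with a marker list, 53 passed within strains and 32 over strain means, with r and rho at most 0.088 and 0.27 apart. How often other genes pass with the same lists was not counted, so these counts are not read as particular to the members. The part of these markers in the pairs other than Igf2 and Igfbp2 was not tested.

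**Figure D5:**
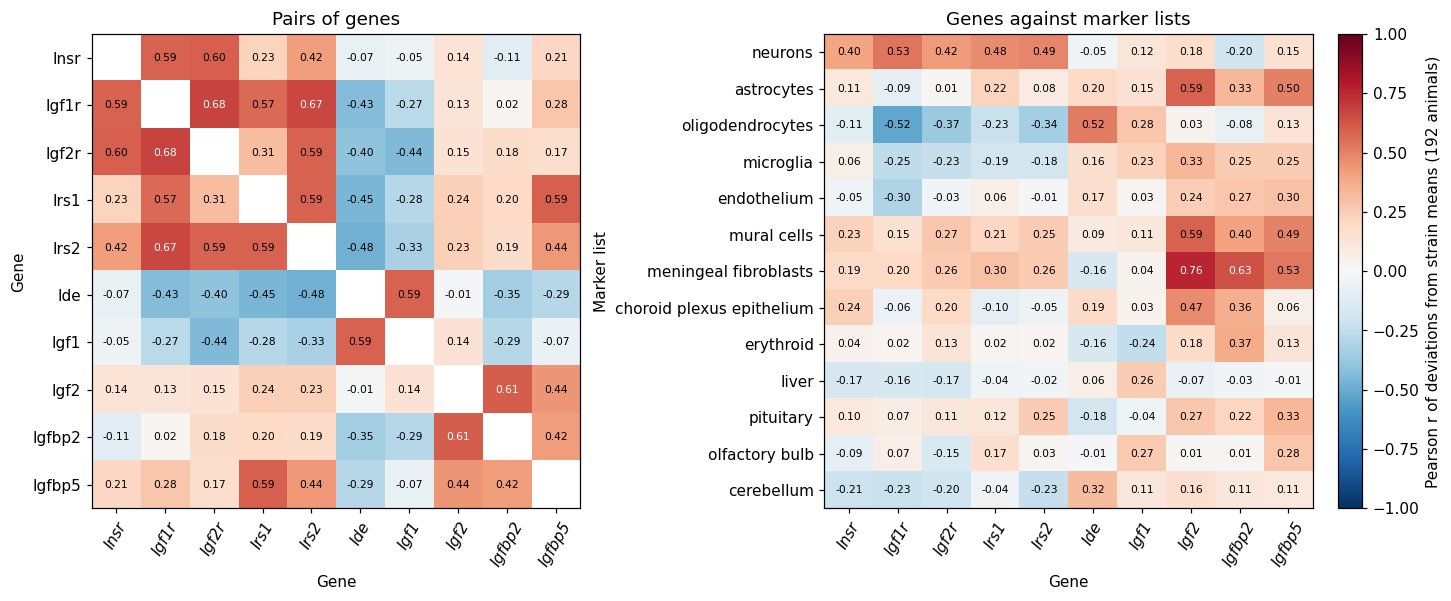
Pearson's r of deviations from strain means over 192 animals, between the 10 genes (left) and between each gene and the mean of each of 13 marker lists (right). Receptors and adaptors form a positive block, Ide has negative values with all of them (down to -0.48, and nearest 0 for Insr at -0.07), and the highest value on the right is that of Igf2 with meningeal fibroblast markers (0.76).

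Of 55 other genes of the pathway fixed as a list, 52 were in the table (Ins1, Pappa and Igf2bp1 were not), and 17 had a strain effect, or 32.7% against 37.3% of all genes, with a median R2 of 0.43 against 0.45 over all genes. The highest R2 were those of Igfbp6 (0.69), a binding protein that prefers IGF-2, Pappa2 (0.68), a protease that cleaves IGF-binding proteins, Igf2bp3 (0.63), an RNA-binding protein, the adaptor Shc1 (0.62) and Ins2 (0.61). In GK/FarMcwi 0 of the 52 were called higher and 1 (1.92%) lower, against 1.29% and 1.61% of all genes. The 1 called gene was Gab1, a docking adaptor that recruits phosphoinositide 3-kinase, with 10.87, 10.81 and 10.79 in the 3 animals. Its difference was -0.23 (SE 0.06, adjusted p 0.025), its mean was the lowest of 74 strains, and against strains of the same batches it was again -0.23 (adjusted p 0.012). Between the progenitors Rictor, a subunit of mTOR complex 2, was called higher in BN-Lx/Cub (+0.42, SE 0.13, adjusted p 0.047) and Ins2 lower (-0.78, SE 0.20, adjusted p 0.0081).

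The row named Ins2, an insulin gene of the rat, had a mean level of 14.1 (13.39 to 14.99 over animals), above every member. RefSeq lists 36 transcripts for it, 34 of them non-coding, and 0 of these were in the transcript table used here. Which transcripts the row counts is not known, so its level is not read here as a level of insulin mRNA. Within strains its r was -0.16 with Igf2 (permutation p 0.087) and -0.22 with Igfbp2 (permutation p 0.011).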

How the data were processed

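The authors deposited values on a log2 scale per gene and per transcript, without counts, so that the depth of each library is unknown and the number of animals limits the precision. For an earlier version (v5) the authors describe trimmed reads, removal of ribosomal reads, alignment to strain-specific rn6 genomes, RSEM estimates, removal of 1 factor of unwanted variation and the regularized log transformation. How the RefSeq tables used here (v7.1) were made was not given in the sources used here. The submitters' processing notes name cutadapt 1.9.1 and, each in an older and a newer version, Bowtie2 (2.3.4.3 and 2.4.5), HISAT2 (2.1.0 and 2.2.1), StringTie (1.3.5 and 2.2.1) and RSEM (1.3.1 and 1.3.3). Where they were applied, the removal of unwanted variation can also take out variation that strains or cell types share, and the regularized log shrinks differences of low genes.

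From these values, 73 spike-in features were left out, and libraries of the same strain and replicate number were averaged to 1 animal. Of 197 animals, 194 had 1 library. Columns of per-sample values that were not used numbered 0. Strains were compared in 1 limma fit (limma 3.58.1, R 4.3.3) of strain means over all 197 animals and 20859 genes, by moderated F-tests and contrasts with Benjamini-Hochberg adjustment over all genes at 5% FDR, after the fit had been tested on simulated data. Labels do not say how animals were housed or extracted, so p-values measure the spread between these animals. Source and storage of tissue, which differed between groups of strains, were in no fit. R2 is the share of the total sum of squares that lies between strains. Correlations used 100000 permutations (two-sided, numpy 2.4.6), of animals within their strain or of strain means, and Benjamini-Hochberg adjustment over the 45 pairs. The place of GK/FarMcwi among strains was tested by an exact permutation over 74 strains. A marker list was scored as the mean of its centred genes.

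The members, the gene and marker lists and the tests were chosen with earlier results of these data known. Genes were named by rule: the 10 members, the 5 other pathway genes with the highest R2, the 3 largest called differences each way in each contrast, the 5 genes most like Igf2 and Igfbp2 within strains, and the strains at both ends of the order. Sequences are those of RefSeq on GRCr8, and positions of genes those of the deposited rn6 annotation. Of 209 labelled animals, 12 were not in the RefSeq table. Replicate numbers did not pair the animals of different strains: deviations of animals with the same number had a mean r of 0.018, against -0.009 for other numbers. Alternatives covered the batch labels, 1 library per animal, low values, the doubted libraries (with HXB17/Ipcv 2 added after seeing the data), the replicate block, centring, limma-trend, 3 other deposited gene tables and leaving out replicates.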

Additional observations from a re-analysis of the deposited data

How the results depend on the processing

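Calls that held in each setting run were the strain effects of Insr, Igf2, Igfbp2 and Irs2 over all strains, the higher Insr in BN-Lx/Cub, the 0 members called in GK/FarMcwi and the correlation of Igf2 with Igfbp2. That correlation fell from 0.61 to 0.25 within strains and from 0.74 to 0.37 over strain means with the meningeal markers as a covariate. It ran from 0.61 to 0.63 within strains and from 0.69 to 0.76 over strain means when 1 replicate number was left out, and was 0.60 and 0.74 with the replicate block. Of 149 R2 values of single members under an alternative, 127 kept their side of the threshold, 17 lost the call and 5, all of Igf1, gained it. Of 159 GK/FarMcwi values 159 kept it, and of 169 BN-Lx/Cub values 154 did, 14 lost the call and 1 gained it. No called difference changed sign.

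Counts that moved by more than 1.5 times follow, and the cause was not tested. The number of genes with a strain effect (7785) was 12240 with the batch label as a covariate, 3579 among genes above the median level, 17047 in the table of reconstructed genes (more features tested), and 3003 to 6065 without 1 replicate number (fewer animals). For the members (8) it was 5 among reconstructed genes, where Igf2 has no value, and 4 to 5 without 1 replicate number. For the pathway genes (17) it was 31 with the batch label, 10 above the median level, 27 in the v5 table, and 5 to 20 without 1 replicate number. Inside FXLE/LEXF (2) it was 1 among reconstructed genes, 0 in the v6 table (which holds fewer strains) and 1 without any 1 replicate number. Inside the classic inbred strains (4) it was 2 among reconstructed genes, 7 in v5 and 3 to 5 without 1 replicate number, and inside HXB/BXH (6) 2 to 4. Transcripts of the members (5) gave 1 to 3 without 1 replicate number.

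Genes called in GK/FarMcwi (605) numbered 38 and 46 with the batch characteristic and the title batch as covariates, 144 above the median level, 400 in v6, 1006 against strains of its batches, and 201 to 285 without 1 GK animal. With these covariates GK/FarMcwi was compared only within the 56 and 45 of 74 strains that are linked by batches. Genes called between BN-Lx/Cub and SHR/OlaIpcv (940) numbered 548 with 1 library per animal, 1567 and 598 with the batch characteristic and the title batch, 469 above the median level, 410 with the replicate block, 1877 among reconstructed genes, 408 in v6, and 202 to 1777 without 1 animal. The members called there (3) were 1, always Insr, with the title batch, the replicate block, the reconstructed genes and v5, and 1 to 3 without 1 animal. The library sets without SHR/OlaIpcv 2 or 3 gave no value, since those animals are not in this table. The v5 table, unlike this one, holds SHR/OlaIpcv animals 2 and 3.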

Other observations

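The genes most like the other members within strains, named after their values had been seen, were of different kinds. Igf1r was most like Kmt2a (r 0.86), Wdfy3 (0.85) and Wipf2 (0.84), and Igf2r most like Dync1h1 (0.86), Prpf8 (0.83) and Gbf1 (0.83). Over strain means Igf1r kept an r of 0.83 with Kmt2a and Igf2r one of 0.85 with Dync1h1. Irs2 was most like Rnf44 (0.84) and Irs1 most like Brd3 (0.81). Ide was most like Hif1a (0.85), a factor of the response to low oxygen, and Lamp2 (0.84), a lysosomal membrane protein. Igf1 was most like Ptn (0.77), which encodes the growth factor pleiotrophin, and Igfbp5 most like Fbln2 (0.75), an extracellular matrix protein. Insr had no gene above 0.65, the r of Ncoa2, and over strain means that pair had 0.29.

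Gene length went with part of this co-variation. In each animal, the deviations of 8014 genes from their strain means were set against log2 exonic length, and the slope ran from -0.062 to 0.047 per doubling. Within strains the slope had an r of -0.67 with Igfbp2, 0.45 with Insr, 0.39 with Igf1, and 0.34 with Igf1r and Ide. Over strain means it had 0.48 with Igf1 (adjusted p 0.00030), -0.44 with Igfbp2 (adjusted p 0.00045), 0.38 with Igf1r (adjusted p 0.0029) and 0.35 with Ide (adjusted p 0.0063), and its part in their strain effects was not tested. With the slope as a covariate, added after the data were seen, r between Igf2 and Igfbp2 was 0.71 within strains and 0.79 over strain means. Of the 45 pairs, 39 then passed within strains, among them 30 of the earlier 31 with the same sign, and 0 of the called signs turned. Here too the share of all gene pairs that would pass was not counted.

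When each strain with 3 animals was set against the mean of all others, the median number of the 10 members called was 0 and the highest 4, in BN-Lx/Cub, where 4269 genes were called. GK/FarMcwi had 605 genes called against a median of 307.5 over the 54 strains, and 0 members.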
